A study of Mus musculus with 6 samples.

Results

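Histone genes were followed in total RNA of intrahepatic biliary epithelial cells, which form the wall of the bile ducts inside the liver. The members were all rows whose gene symbol follows the naming of mouse histone genes, and they numbered 74 of the 25302 rows of the expression table. Of these, 57 were replication-dependent histone genes, 11 were variant histone genes, and 6 were annotated as pseudogenes or an antisense RNA (H1f11-ps, H2af-ps1, H2af-ps2, H3f3a-ps2, H3f3aos and H3f4). The Control group comprised 3 samples of genotype Sox9fl/fl, in which both copies of Sox9, a transcription factor gene of biliary cells, are flanked by loxP sites. The Sox9cKO group comprised 3 samples of genotype Sox9fl/fl:AlbCre+/-, which add a Cre recombinase driven by the albumin promoter, a promoter of hepatocytes and of their embryonic precursors, from which biliary cells also arise. The floxed alleles were common to both groups, and the age and sex of the mice are not given in the sources used here. The labels do not say that the samples of a group came from separate animals, so the p-values measure only the spread between these samples, which may be technical.

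Eukaryotic DNA is wound around nucleosomes built from the core histones H2A, H2B, H3 and H4, and linker histone H1 binds where the DNA enters and leaves. Most histone protein is made in S phase from replication-dependent genes, which lie in clusters, usually lack introns, and give messenger RNAs that end in a stem-loop in place of a poly(A) tail. The stem-loop is bound by the protein Slbp, and it couples the messages to DNA synthesis, since they are degraded when S phase ends. Variant histones such as H3.3, H2A.Z, macroH2A and H1.0 are made through the cell cycle from genes scattered over the genome, mostly as polyadenylated messages. The libraries were made from total RNA after removal of ribosomal RNA, so that messages without a poly(A) tail were not lost to a selection on that tail.

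The stem-loop is the sequence that separates the classes, and the following 26-base stretches of GENCODE M21 transcripts are shown to let it be compared between histone families and between genes that behaved differently below. Capitals mark the 16 letters of the stem and loop, in which the first 6 letters pair with the last 6 around the loop, and the flanks are in lower case.
H2bc3: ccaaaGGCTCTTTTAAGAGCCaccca
H2ac4: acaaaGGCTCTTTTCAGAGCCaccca
H3c2: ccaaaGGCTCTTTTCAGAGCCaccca
H1f2: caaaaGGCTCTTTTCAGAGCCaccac
H4c6: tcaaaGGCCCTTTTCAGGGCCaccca
H4c4: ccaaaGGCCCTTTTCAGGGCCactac
H4f16: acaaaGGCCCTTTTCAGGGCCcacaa
H2ax: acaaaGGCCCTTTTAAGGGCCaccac
The H2A, H2B, H3 and H1 genes shown share the stem letters GGCTCT, and the H4 genes and H2ax carry GGCCCT. H2ax is a variant gene known to give both a stem-loop message and a longer polyadenylated one, and its annotated transcript ran on for 822 bases past the loop. The search was for the 16-letter histone stem-loop on the transcript strand, with the outer base pairs, the central cytosine and 4 thymines, and the adenine and guanine after the loop fixed and 5 letters left free. It matched 38 of the 57 replication-dependent genes and, of the 11 variant genes, H2ax alone. In 18 of the 57 (31.6%) the loop lay in the last 100 bases of the transcript, against 5 of 21883 other protein-coding genes (0.0228%). The 21883 include 10 histone genes of that annotation outside the rule, and these gave 4 of the 5. Anywhere in the transcript, the letters stood in 39 of the 21883, among them 6 of those 10. The distance from the loop to the annotated end was 23 bases in H2bc3, 11 in H2ac4, 51 in H3c2 and 33 in H4c6, but 840 in H1f2, 770 in H4c4 and 2445 in H4f16. In 19 of the 57 genes the annotated transcript did not hold these letters. Several of these models are short, such as 381 bases in H2bc15 and 312 in H4c12, so a loop past the annotated end would be missed.

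The promoters of the classes were compared by their letters. The 120 bases before the annotated start of an H2B gene, an H4 gene and the main variant gene are shown from RefSeq on GRCm38.p6, with the TATA box TATAAA, the CCAAT box and the octamer ATTTGCAT, or their reverse complements, in capitals.
H2bc3 (chr13:23746614-23746733, plus strand): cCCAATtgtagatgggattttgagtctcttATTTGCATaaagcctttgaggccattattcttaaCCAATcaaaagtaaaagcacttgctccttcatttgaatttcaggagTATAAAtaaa
H4c4 (chr13:23581448-23581567, plus strand): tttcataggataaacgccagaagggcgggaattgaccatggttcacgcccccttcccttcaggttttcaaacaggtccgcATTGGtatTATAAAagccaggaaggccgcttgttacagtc
H3f3b (chr11:116024505-116024624, minus strand): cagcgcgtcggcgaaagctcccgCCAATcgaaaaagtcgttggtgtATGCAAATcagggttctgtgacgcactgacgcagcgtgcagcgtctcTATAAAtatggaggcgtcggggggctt
Over windows of 300 bases (250 before to 50 after the start) and both strands, TATAAA, the core of the TATA box, stood in 31 of 52 replication-dependent promoters (59.6%), 1 of 10 variant promoters, that of H3f3b, and 13.6% of all 32851 promoters. CCAAT, the letters bound by NF-Y, stood in 44 of the 52 (84.6%), in 7 of the 10 and in 37.4% of all promoters. It was in every replication-dependent H1, H2A, H2B and H3 window and in 3 of 11 H4 windows. ATTTGCAT, the octamer bound by Oct-1 in H2B promoters, stood in 5 of 13 H2A and 5 of 13 H2B windows and in 0 of the H1, H3 and H4 windows of replication-dependent genes, in 1 of the 10 variant windows, that of H3f3b, and in 1.74% of all promoters. Such matches are letters in a window and not measured binding.

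The values below are normalized reads, that is, reads assigned to a gene divided by a factor of the library, from 11883496 to 16191990 assigned reads per library. Sox9 itself was measured at 6211, 6043 and 6293 normalized reads in Control replicates 1 to 3 and at 3363, 3165 and 3340 in Sox9cKO replicates 1 to 3. The groups did not overlap, and the log2 fold change was -0.91 (SE 0.0952, limma adjusted p = 0.00501), in the direction of the labels. All 10 biliary markers listed passed the filter on low values, with summed reads of 72070 to 116581 per library. Summed markers of hepatocytes ranged from 22817 to 35669 in Control and from 31760 to 47405 in Sox9cKO, and those of endothelial cells from 1530 to 33139 and from 5552 to 34285. By limma, Krt7 was called higher and Sox9 lower among 10 biliary markers, and Tat and Serpina1c higher among 10 hepatocyte markers. Csf1r was called higher among 7 tested leukocyte and erythroid markers, whose median log2 change was -0.68. With the replicate block Lyz2 of this list was called as well, lower. Of 10 endothelial and 7 tested mesenchymal markers 0 were called, and with the replicate block Egfl7 and Vwf of the former were. Of the 17153 genes that averaged 10 normalized reads or more over the libraries, limma called 510 (2.97%) at an adjusted p under 0.05, of which 349 were higher, or 294 of 511 after scaling by total reads. With the replicate number as a block it called 1381 (8.05%).

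Most assigned histone reads came from variant genes, and most of these from a single gene. The 11 variant genes together gave 13479, 12862 and 13112 normalized reads in Control and 15213, 12017 and 11316 in Sox9cKO. The 57 replication-dependent genes gave 3851, 5069 and 4317 in Control and 5664, 4940 and 4416 in Sox9cKO. Both sums overlapped between the groups. Replication-dependent reads amounted to 33.6 ± 5.46 per 100 variant reads in Control (SD, n = 3) and to 39.1 ± 1.94 in Sox9cKO, with single libraries from 28.6 to 39.4 and from 37.2 to 41.1. How reads matching several gene copies were counted is not given. Replication-dependent genes shared a median of 47.0% of their 50-base stretches with other genes, variant genes 2.19%. The ratio between the classes may therefore depend on the counting. These reads were also not divided by transcript length. Annotated exons measured 2976 bases in H3f3b, 1138 in H4c4 and 520 in H2ac20, but 7425 in H1f3. The order of the classes by reads therefore need not hold per kilobase. In bulk samples such as these, fewer cells of a type and less RNA per cell cannot be told apart.

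Among the 58 histone rows that passed the filter (46 replication-dependent, 11 variant and H2af-ps2), limma called 0 between Sox9cKO and Control, against 2.97% of all genes. With the replicate block, edgeR and DESeq2 the count was also 0. At an unadjusted p under 0.05 limma had 5 of 58 (8.62%), edgeR 4 and DESeq2 4, against 17.8% of all genes tested with limma. The groups did not overlap in 8 of the 58 (13.8%), against 24.2% of all genes tested. The median log2 fold change was 0.18 over the replication-dependent genes (34 higher, 12 lower) and -0.10 over the variant genes (5 higher, 6 lower). Over all genes it was 0.04 (9293 higher, 7860 lower). Replication-dependent genes share sequence, so their directions are not independent counts. The variant median was 0.05 without Control replicate 2 and 0.12 without Sox9cKO replicate 3. A p that misses the threshold does not show that levels were alike, and the intervals set the limit: for 30 of the 58 rows (20 replication-dependent and 9 variant) the 95% interval lay within a log2 change of 1 in either direction. The median interval reached 0.78 to each side for replication-dependent genes, 0.45 for variant genes and 0.57 for all genes.

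**Figure D1:**
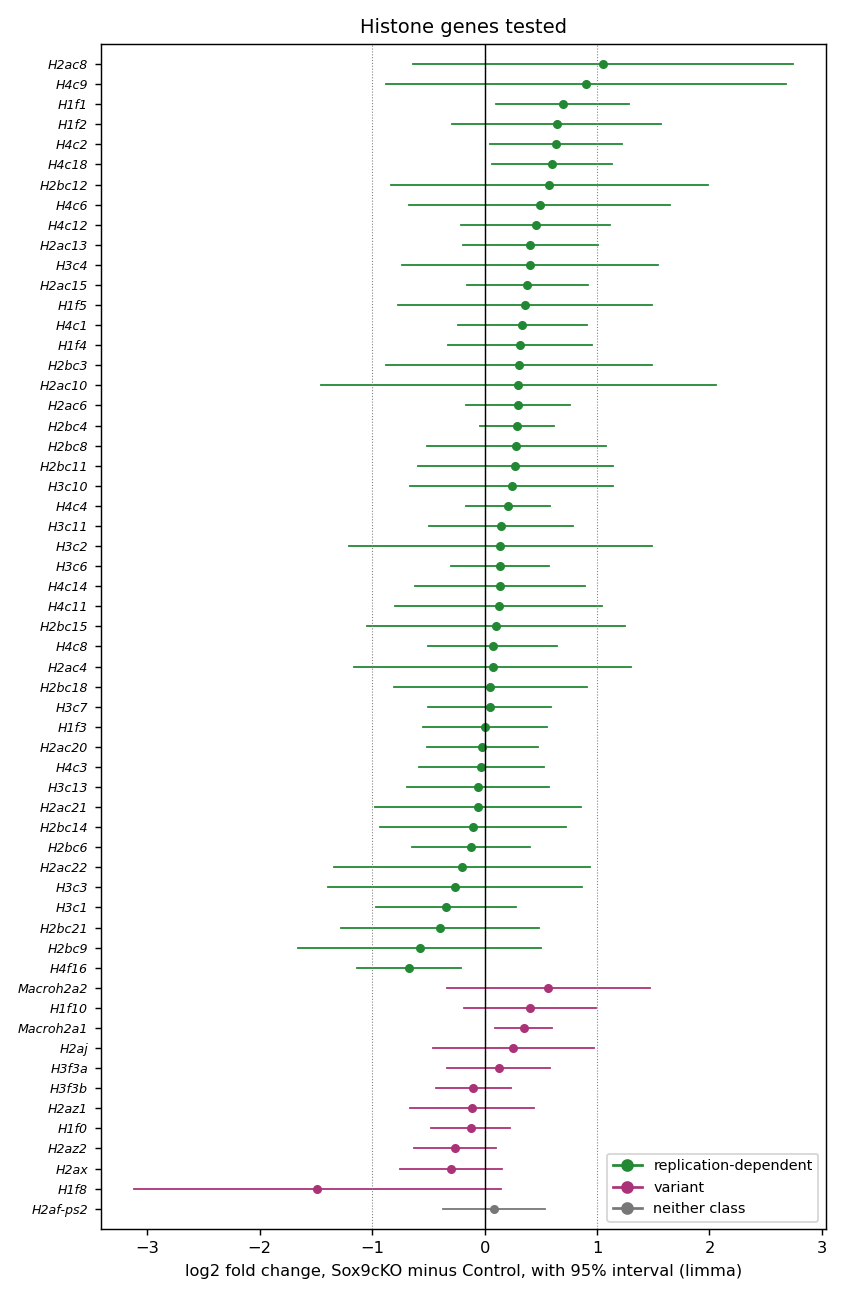
Log2 fold change of each histone row tested (Sox9cKO minus Control, points) with its 95% interval from limma (lines); the dotted lines stand at a log2 change of 1 in either direction. The intervals of 5 rows leave out 0 before adjustment, those of H4f16, Macroh2a1, H1f1, H4c18 and H4c2, and 0 of the 58 passed at an adjusted p under 0.05.

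H3f3b, which encodes the replacement histone H3.3, was the histone gene with the most reads. It gave 9793, 9266 and 9724 normalized reads in Control and 10838, 8364 and 7929 in Sox9cKO. These are 69.6% to 74.2% of all variant histone reads of a library, and the Sox9cKO libraries lay on both sides of the Control ones. The log2 fold change was -0.10 (SE 0.142, adjusted p = 0.773). H3f3a encodes the same H3.3 protein and gave 446, 372 and 365 reads in Control and 547, 347 and 413 in Sox9cKO, which overlap. Per kilobase of annotated exon, H3f3b had 3131 normalized reads and H3f3a had 118. H3f3a lies opposite the antisense RNA H3f3aos, whose reads were few (up to 12.7), and the table does not say whether counting used the strand.

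MacroH2A variants carry a large domain beside the H2A fold and are known from silent chromatin. Macroh2a1 gave 1034, 1154 and 1131 normalized reads in Control and 1414, 1487 and 1325 in Sox9cKO. All 3 Sox9cKO values lay above all 3 Control values, with a log2 difference of 0.35 (SE 0.109, adjusted p = 0.157), which did not pass. Macroh2a2 gave 91.6, 39.9 and 35.7 reads in Control and 94.5, 69.9 and 65.7 in Sox9cKO, so that Control replicate 1 lay inside the Sox9cKO range.

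H2A.Z marks the nucleosomes next to active promoters and is encoded by a pair of genes. H2az1 gave 556, 634 and 427 normalized reads in Control and 594, 559 and 359 in Sox9cKO, with replicate 3 lowest in both groups. H2az2 gave 323, 278 and 268 in Control and 275, 223 and 228 in Sox9cKO (log2 difference -0.26, SE 0.155, adjusted p = 0.441). H2ax, whose protein is phosphorylated at DNA breaks, gave 192, 154 and 187 in Control and 175, 127 and 132 in Sox9cKO. All 3 genes overlapped between groups. H2aj gave 245, 183 and 207 in Control and 409, 187 and 207 in Sox9cKO, where Sox9cKO replicate 1 stood apart from the other 5 libraries.

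The linker variants H1f0 (H1.0, known to accumulate in differentiated cells) and H1f10 are expressed outside S phase, and H1f8 is known as the linker histone of the oocyte. H1f0 gave 751, 709 and 719 normalized reads in Control and 813, 606 and 600.0 in Sox9cKO. H1f10 gave 38.7, 33.4 and 31.1 in Control and 51.7, 37.8 and 48.7 in Sox9cKO. Neither gene separated the groups. H1f8 was near the floor, at 10.1, 39.0 and 16.1 in Control and 1.99, 10.4 and 9.06 in Sox9cKO (log2 difference -1.49, 95% interval -3.12 to 0.14, adjusted p = 0.324), and its groups overlapped at Control replicate 1.

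**Figure D2:**
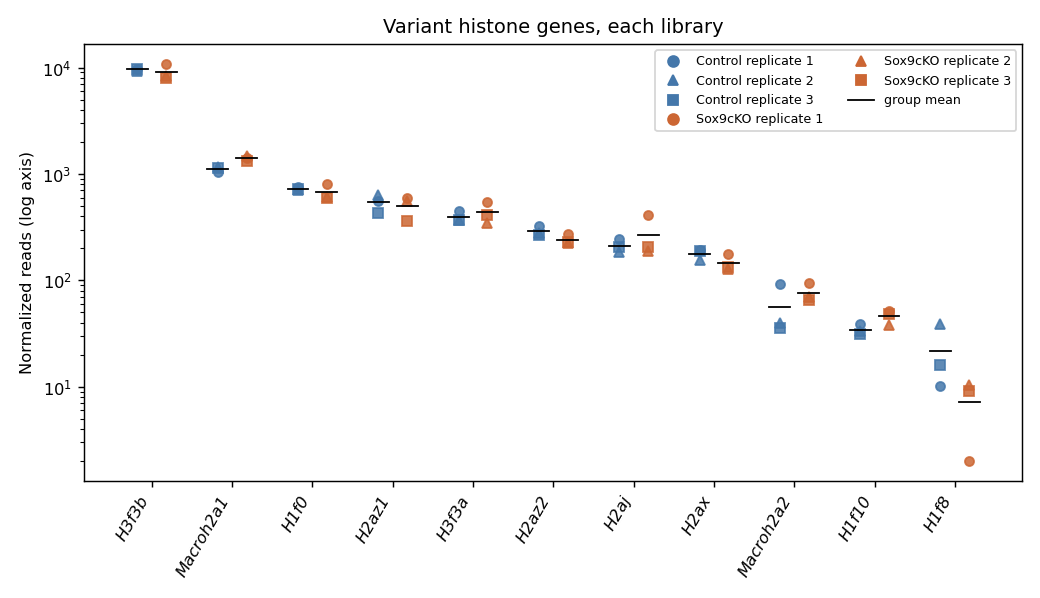
Normalized reads (log axis) of the 11 variant histone genes in each library; colour gives the group, marker shape the replicate number and the short line the group mean. The 2 groups overlap in every gene but Macroh2a1, whose Sox9cKO values (1325 to 1487) lie above its Control values (1034 to 1154).

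The replication-dependent H1 genes also encode linker histones. Their summed reads were 942, 1290 and 797 in Control and 1803, 1254 and 941 in Sox9cKO, and Sox9cKO replicate 1 was the highest of the 6. H1f4 gave 353, 363 and 307 normalized reads in Control and 649, 390.3 and 299 in Sox9cKO. H1f2 gave 282, 449 and 188 in Control and 712, 419.6 and 302 in Sox9cKO (log2 difference 0.64, SE 0.396, adjusted p = 0.46). In both, the Sox9cKO mean was above the Control mean through replicate 1 above all. H1f3 gave 208, 320.2 and 227 in Control and 288, 279 and 191 in Sox9cKO, and overlapped. H1f1 gave 66.4, 88.2 and 48.4 in Control and 109, 102 and 109.8 in Sox9cKO. All its Sox9cKO values lay above all Control values (log2 difference 0.70, SE 0.252), yet the adjusted p was 0.209. H1f4 and H2bc6 overlap on the same strand in GENCODE, so reads in their shared stretch cannot be assigned to either gene alone.

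Among the H2A genes the largest was H2ac20, at 156, 216 and 159 normalized reads in Control and 198, 184 and 142 in Sox9cKO. H2ac15 gave 80.7, 116 and 87.6 in Control and 120.4, 148 and 102 in Sox9cKO. H2ac6 gave 58.0, 71.5 and 61.1 in Control and 73.6, 79.4 and 81.5 in Sox9cKO. Of these, only H2ac6 had groups that did not overlap, with a log2 difference of 0.30 (SE 0.196, adjusted p = 0.488). H2ac8 had the largest positive log2 difference of the tested histone rows, 1.05, and went from 8.41, 33.4 and 3.46 in Control to 25.9, 25.5 and 17.0 in Sox9cKO. Control replicate 2 lay above all 3 Sox9cKO libraries, and the adjusted p was 0.51.

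Among the H2B genes, H2bc4 had the most reads, at 219, 205 and 196 in Control and 236, 259.9 and 263 in Sox9cKO. The groups did not overlap (log2 difference 0.29, SE 0.138, adjusted p = 0.34). H2bc6 gave 68.9, 90.03 and 61.1 in Control and 60.7, 69.9 and 69.1 in Sox9cKO, and H2bc8 gave 50.4, 63.1 and 39.2 against 59.7, 90.7 and 41.9. H2bc9 had the lowest log2 difference among H2B genes, going from 21.01, 16.7 and 12.7 to 13.9, 15.1 and 5.66 (log2 difference -0.58, adjusted p = 0.577), with overlap. Among the H3 genes, H3c6 gave 117, 140.1 and 123 in Control and 162, 139 and 120 in Sox9cKO. H3c7 gave 59.7, 81.7 and 62.2 against 66.7, 83.2 and 60, and H3c4 gave 31.1, 79.8 and 21.9 against 54.7, 63.3 and 37.4. The 3 H3 genes overlapped between groups.

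H4 genes gave the most replication-dependent reads. H4c4 gave 678, 699 and 933 normalized reads in Control and 955, 788 and 907 in Sox9cKO. H4c3 gave 283, 327 and 479 in Control and 396, 277 and 379 in Sox9cKO, and H4c8 gave 235, 264 and 418 against 339, 259 and 343. Together these 3 genes held 70.7% to 80.8% of the replication-dependent H4 reads of each library, and in both groups replicate 3 was above replicate 2 in all of them. Per kilobase of exon they had 726 (H4c4), 435 (H4c3) and 659 (H4c8) normalized reads, the highest of the replication-dependent genes. This ranking depends on the annotated length, which runs 770 bases past the loop in H4c4 and 454 in H4c3. It may also depend on shared sequence, 10.2% of 50-base stretches in H4c4, 19.6% in H4c3 and 45.8% in H4c8, against 85.6% in H4c18. H2af-ps2, listed in GENCODE M21 as the processed pseudogene Hist1h2al, had 1060 per kilobase, with 299, 336 and 410.2 normalized reads in Control and 367, 300.5 and 443 in Sox9cKO. It shares 67.6% of its 50-base stretches with other transcripts, mainly Hist2h2aa genes.

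H4f16 was the histone row nearest to a call. It gave 140.4, 184 and 128 normalized reads in Control and 90.5, 98.3 and 90.6 in Sox9cKO, so that all 3 Sox9cKO libraries lay below all Control libraries. The log2 difference was -0.67 (SE 0.196, adjusted p = 0.133). It is the only replication-dependent gene of the table on chromosome 6 in GENCODE M21 and, as shown above, its annotated transcript runs far past the stem-loop. H4c18 and H4c2 lay on the other side. H4c18 went from 32.8, 39.9 and 32.3 to 54.7, 55.8 and 49.8 (log2 difference 0.60, adjusted p = 0.228). H4c2 went from 24.4, 33.4 and 26.5 to 42.8, 44.4 and 44.1 (log2 difference 0.63, adjusted p = 0.243). In both, the groups did not overlap. H4c9 had its highest value in Sox9cKO replicate 1, going from 8.41, 10.2 and 3.46 to 38.8, 4.72 and 12.5 (log2 difference 0.90, adjusted p = 0.6).

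**Figure D3:**
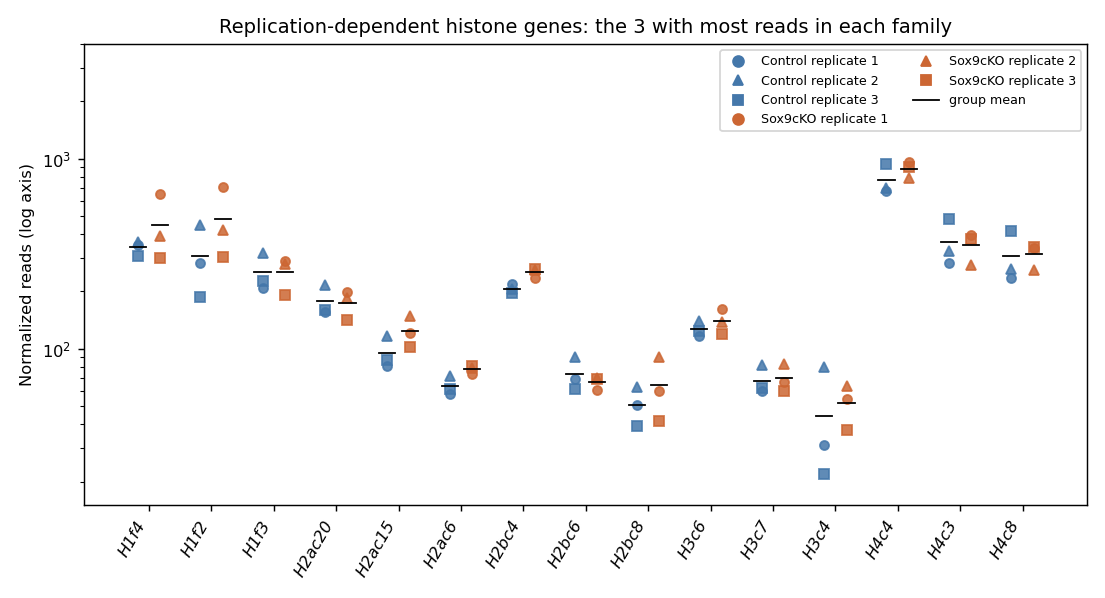
Normalized reads (log axis) of the 3 replication-dependent genes with the highest mean in each histone family, by library; colour gives the group, marker shape the replicate number and the short line the group mean. H4c4 lies between 678 and 955 reads, above the other genes in every library, and replicate 2 (triangles) is above replicate 3 (squares) in both groups for 10 of the 15 genes, against 29.5% of all genes tested.

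Many of these genes are near copies, which limits single-gene values. The 57 replication-dependent genes shared a median of 47.0% of their 50-base stretches with another gene's transcripts, and 25 shared at least 50%. For variant genes the median was 2.19% and the highest 16.9%. In GENCODE M21, 47 of the 57 lie on chromosome 13, 8 on chromosome 3, and 1 each on chromosomes 6 and 11. The sum over all copies does not depend on how shared reads were split within the set. It does depend on shared reads that were discarded or assigned to copies outside the set, and their handling is not given. H2ac19, for example, shared 100% of its 50-base stretches and had at most 6.5 normalized reads in a library. That sum was 4412 ± 615 in Control and 5007 ± 627 in Sox9cKO (SD, n = 3), a ratio of 1.13. The 11 replication-dependent genes under the filter (H1f6, H2ac7, H2ac11, H2ac12, H2ac19, H2bc7, H2bc13, H2bc22, H2bu2, H3c8 and H3c15) had at most 18.0 normalized reads in a library.

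The order of the libraries by replicate number was counted next. In 23 of the 46 replication-dependent genes tested, both replicate 2 libraries lay above both replicate 3 libraries, against 1 of 11 variant genes (H2az1) and 19.4% of all genes tested. By family these were 8 of 11 H2B, 4 of 5 H1, 5 of 9 H2A, 5 of 9 H3 and 1 of 12 H4 genes, the last being H4c6. The median log2 difference between replicates 2 and 3 was 0.42 in Control and 0.38 in Sox9cKO over the replication-dependent genes, 0.03 and 0.01 over the variant genes, and -0.04 and -0.01 over all genes. This pattern was noticed in these values and then counted.

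Single genes with large differences, chosen after their values were seen, are given as examples and not as the typical size. For H2ac10 the log2 difference between replicates 2 and 3 was 2.84 in Control and 1.45 in Sox9cKO, against class medians of 0.42 and 0.38. H2ac10 gave 24.4, 104.9 and 13.8 normalized reads in Control and 52.7, 60.5 and 21.5 in Sox9cKO. H3c2 gave 35.3, 70.5 and 17.3 in Control and 45.8, 59.5 and 21.5 in Sox9cKO. H2bc3, whose stem-loop and promoter are printed above, gave 33.6, 66.8 and 18.4 against 46.8, 60.5 and 28.3. In each, replicate 2 was highest and replicate 3 lowest in both groups. H2bc15 gave 33.6, 89.1 and 34.6 against 52.7, 79.4 and 30.6, again highest in replicate 2. A limma F test of the replicate number, with the genotype in the model, called 466 of the 17153 genes (2.72%) and 0 of the 58 histone rows; the lowest adjusted p was 0.0886, for H3c2. At an unadjusted p under 0.05 the count was 15 of 58 (25.9%), against 18.9% of all genes, and 14 with edgeR. Leaving out Control replicate 1, or Sox9cKO replicate 2, gave 2 calls, H1f2 and H2ac10, and leaving out Sox9cKO replicate 1 gave 1, H2ac10.

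**Figure D4:**
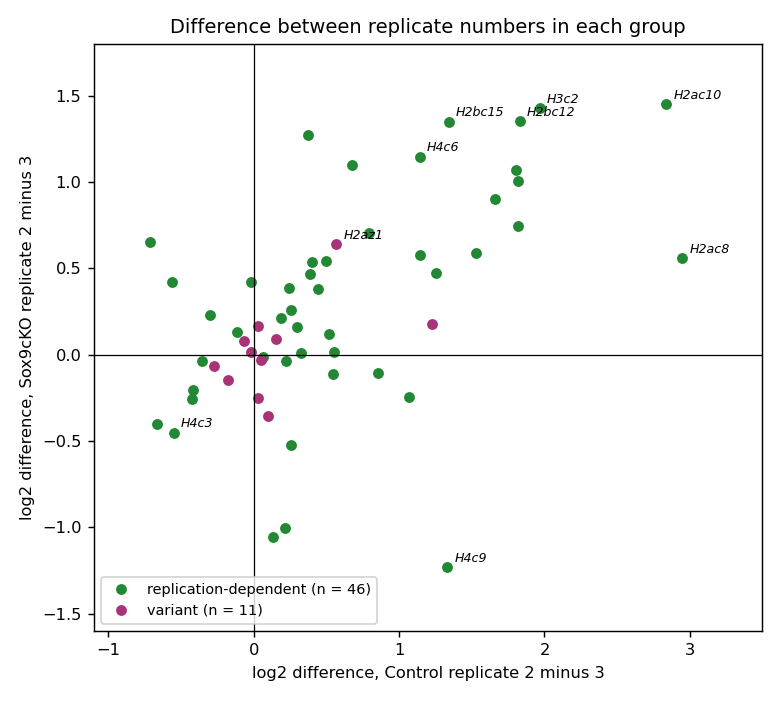
Log2 difference between replicates 2 and 3 in Control (x axis) and in Sox9cKO (y axis) for each tested replication-dependent (green) and variant (purple) histone gene. Both differences are above 0 for 27 of 46 replication-dependent genes, 4 of 11 variant genes (36.4%) and 29.5% of all genes tested, with H2ac10, H3c2, H2bc12 and H2bc15 to the upper right and H4c3 to the lower left.

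The pattern was also set against the end of the annotated transcript. Of 13 tested genes whose transcript ends within 100 bases of the stem-loop, 8 had both replicate 2 libraries above both replicate 3 libraries, with a median log2 difference between the numbers of 0.79 in Control and 0.59 in Sox9cKO. Of 17 genes whose transcript runs on past that distance it was 10, with medians of 0.39 and 0.21. Of 16 genes whose annotated transcript, often a short model, did not hold the letters it was 5, with medians of 0.31 and 0.33. Median log2 differences between Sox9cKO and Control were 0.14, 0.14 and 0.26 in the same order. These are descriptions of overlapping copies and not tests.

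Of 20 listed genes of G2 and mitosis, 18 had both replicate 2 libraries above both replicate 3 libraries, and their summed reads were 1476, 3726 and 906 in Control and 1836, 2760 and 1349 in Sox9cKO. Mki67, the gene of the proliferation antigen Ki-67, gave 428, 1362 and 195 in Control and 702, 1105 and 473 in Sox9cKO. Top2a, the topoisomerase that untangles replicated DNA, gave 191, 483 and 138 against 227, 336 and 144 (F test adjusted p = 0.0431). Of 25 listed S phase genes, 8 had this order, and their summed reads were 5772, 5315 and 4767 in Control and 5035, 5452 and 4728 in Sox9cKO, highest in Control replicate 1. The 8 include Pcna, the sliding clamp of DNA polymerase, at 700.2, 768 and 544 in Control and 482, 628 and 398 in Sox9cKO. Endothelial markers followed the same numbers in 9 of 10 genes, with sums of 10681, 33139 and 1530 in Control and 26109, 34285 and 5552 in Sox9cKO. None of the 10 was at 0 in all libraries, and the defining markers Pecam1, Cdh5 and Kdr passed the F test (adjusted p = 0.021 each). Both replicate 2 libraries also lay above both replicate 3 libraries in 4 of 7 tested leukocyte and erythroid markers and 3 of 7 tested mesenchymal markers. This held for 0 of 10 biliary and 0 of 10 hepatocyte markers. The part of dividing cells and of endothelial or other cells in the histone pattern was not tested.

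**Figure D5:**
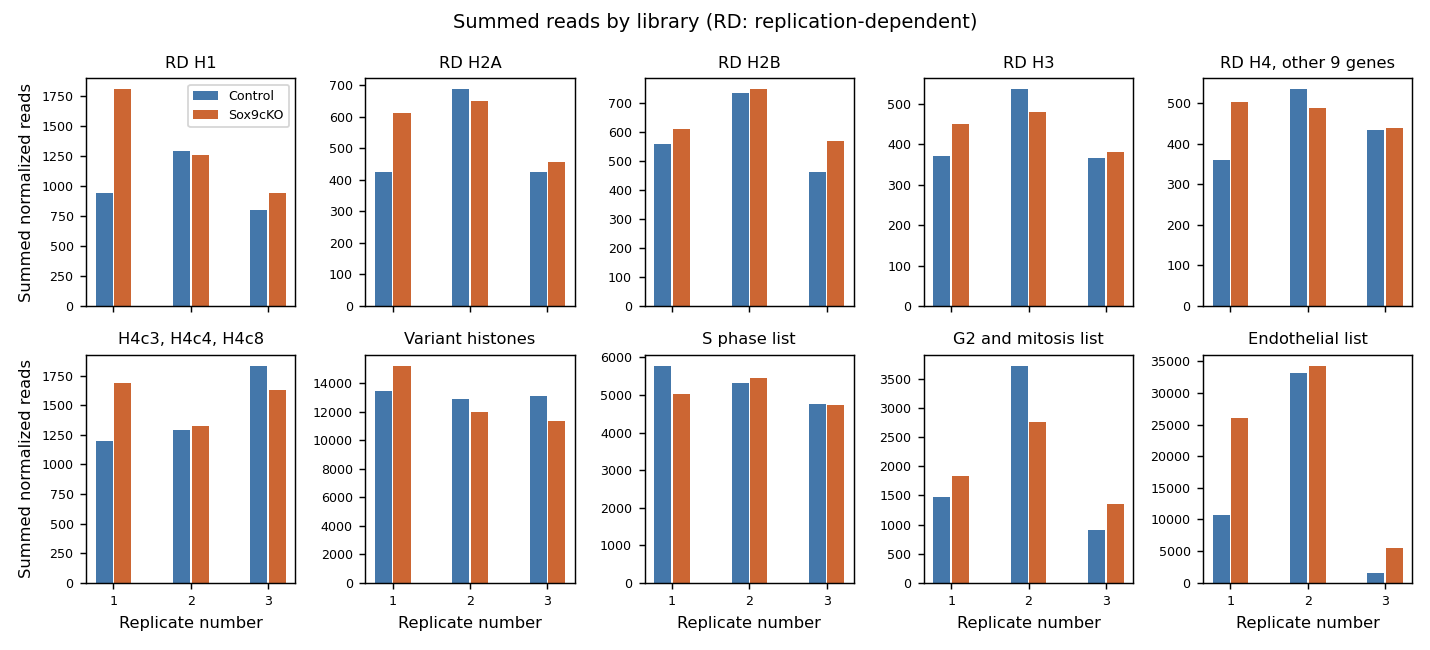
Summed normalized reads per library (bars start at 0) for the replication-dependent (RD) histone families, the variant histones and 3 gene lists, by replicate number and group. H2A, H2B and H3 sums peak in replicate 2, as the lists of G2 and mitosis and of endothelial genes do, whereas H4c3, H4c4 and H4c8 are above their replicate 2 level in replicate 3.

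The machinery that makes and handles histone RNA and protein was examined through lists of its genes. Of 17 genes of histone message processing and decay, 0 were called by limma (median log2 change 0.15), 0 with the block and 0 with edgeR or DESeq2. Slbp, the stem-loop binding protein, gave 846, 755 and 797 normalized reads in Control and 636, 720.1 and 606 in Sox9cKO. All Sox9cKO values were below all Control values (log2 difference -0.29, SE 0.122, adjusted p = 0.271, not passing). Sympk, the scaffold of the cleavage complex, gave 1204, 1086 and 1097 against 1518, 1557 and 1443 (log2 difference 0.42, SE 0.105, adjusted p = 0.0954), again without overlap and without a call. Cpsf2, Cpsf3 and Lsm11 of the list (log2 difference 0.30, 0.29 and -0.25) did not overlap either, as 24.2% of all genes tested did not. The other genes of the list overlapped between groups. Npat, the coactivator of histone gene transcription, gave 488, 484 and 531 against 433, 574 and 597, which overlap.

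Of 17 tested histone chaperones and exchange factors, limma called 0 (median log2 change -0.05). Nasp, a chaperone that holds the reserve of H3 and H4, gave 2082, 1527 and 1690 normalized reads in Control and 1268, 1220 and 1155 in Sox9cKO. Its groups did not overlap, and the log2 difference of -0.53 (SE 0.139) had an adjusted p of 0.106, or 0.0386 with the replicate block. Anp32e, which removes H2A.Z from chromatin, gave 730, 609 and 689 in Control and 560.1, 457 and 471 in Sox9cKO (log2 difference -0.45, adjusted p = 0.153). Chaf1a, a subunit of the factor that deposits H3 and H4 behind the replication fork, gave 124, 125 and 99.1 against 87.6, 89.8 and 57.7 (log2 difference -0.58, adjusted p = 0.265). Neither passed, although the groups did not overlap in either, as they did not in 24.2% of all genes tested. Nap1l1 also fell without overlap (log2 difference -0.22). Hjurp, Cabin1 and Ssrp1 of the same list had positive log2 differences (0.35, 0.26 and 0.24), with overlap. Hira, which deposits H3.3, gave 173, 183 and 177 against 160.2, 173 and 188.

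Of the 25 S phase genes limma called 1, Pola1, the catalytic subunit of DNA polymerase alpha, which fell from 578, 510 and 469 to 321, 346 and 298 (log2 difference -0.69, SE 0.138, adjusted p = 0.0499). The call lies at the threshold and was lost under 4 alternatives and in every fit that left out a sample. The median over the list was -0.05, and that over the 20 G2 and mitosis genes, of which 0 were called, was -0.08. Other RNAs without a poly(A) tail, which enter a total RNA library as histone messages do, gave 0 calls among 5 tested (median log2 change 0.24). Rpph1, the RNA of ribonuclease P, gave 496, 537 and 553 in Control and 862, 717 and 842 in Sox9cKO, with a log2 difference of 0.61 (SE 0.126, adjusted p = 0.054, or 0.0312 with the block). Scarna2, a guide RNA of Cajal bodies, gave 3533, 3241 and 3614 against 2755, 3069 and 2568 (log2 difference -0.31, adjusted p = 0.211). The 2 went in opposite directions, each without overlap between groups.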

How the data were processed

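RNA from 6 samples was prepared with a stranded total RNA kit with ribosomal RNA depletion and unique molecular identifiers, per the labels' protocols. The authors deposited a signal per gene, namely counts divided by size factors, and per the submitters' processing notes DESeq2 1.36.0 and GRCm39 were used. The aligner, counter, annotation and use of the identifiers are not given in the sources used here. Whole reads were recovered for 100% of values (tolerance 0.001 reads). The lowest total of a gene was 10 reads. Genes with a mean of at least 10 entered limma 3.58.1 (R 4.3.3, with trend) on log2(value + 1), two-sided, with Benjamini-Hochberg adjustment over all genes and a threshold of 0.05. The pseudocount understates changes of low genes. edgeR 4.0.16 and DESeq2 1.42.0 on the recovered reads were alternatives, and the scripts were tested on simulated data. Same-numbered samples deviated together (correlations of deviations 0.207, 0.472 and 0.542). The replicate number, taken from the sample titles, entered as a block in alternative fits. Limma statistics between groups that are given without mention of the block come from a fit on group alone. Members, classes and gene lists were chosen with earlier results of these data known. Genes given in every library were the variants, the 3 largest replication-dependent genes per family, the 3 largest positive and negative differences, and genes at an unadjusted p under 0.05; H2ac10, H3c2, H2bc3 and H2bc15 were chosen after their values were seen. From the lists, called genes and otherwise those with most reads were to be named. Slbp, Sympk, Cpsf2, Cpsf3, Lsm11, Npat, Nasp, Anp32e, Chaf1a, Nap1l1, Hjurp, Cabin1, Ssrp1, Hira, Pcna, Lyz2, Rpph1 and Scarna2 were named after their values or for their roles. Stem-loops, overlaps and lengths came from GENCODE M21 on GRCm38, where all 74 rows matched by gene identifier, and promoters from RefSeq on GRCm38.p6, where 63 matched.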

Additional observations from a re-analysis of the deposited data

How the results depend on the processing

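The number of histone rows called stayed at 0 in all 11 alternatives with all samples and in the 6 fits that each left out 1 sample, with a lowest adjusted p from 0.0611 to 0.252. Called genes overall numbered 510; the count was 1214 with DESeq2, 1381 with the replicate block in limma and 1160 with the block in edgeR. It was 200 to 389 with a sample left out, where fewer samples entered, and fell by over 1.5 times without Control replicate 1 or 3 or Sox9cKO replicate 2 or 3. The median of the replication-dependent genes kept its sign in these fits (0.09 to 0.19 with all samples, 0.09 to 0.35 with 1 left out). That of the variant genes was -0.19 to -0.09 with all samples and -0.24 to 0.12 with 1 left out. Scaling by total reads moved the median of all genes from 0.04 to -0.06. The summed replication-dependent reads differed by 0.18 on the log2 scale, and by 0.09 to 0.22 under 5 alternatives, among them the sum without H4c3, H4c4 and H4c8, which was chosen after seeing the data. Of 41 histone genes recomputed, 26 never changed direction and 0 were ever called. A direction changed for H1f3 (-0.086), H3c7 (-0.049), H4c8 (-0.022) and H2ac4 (-0.020) with total reads scaling. With edgeR it changed for H1f3 (-0.042), H3c7 (-0.0013), H4c8 (-0.0073), H2ac10 (-0.14), H2ac4 (-0.10) and H3c2 (-0.0081). With DESeq2 it changed for H1f3 (-0.034), H2ac10 (-0.13), H2ac4 (-0.10) and H3c2 (-0.0010), and with the replicate block in edgeR for H1f3 (-0.035) and H2ac4 (-0.0039). With 1 sample left out the log2 differences of the genes that changed direction ranged from -0.12 to 0.20 for H1f3, -0.36 to 0.55 for H2ac4, -0.30 to 1.12 for H2ac10, -0.12 to 0.13 for H2ac20, -0.27 to 0.12 for H2az1. They ranged from -0.093 to 0.47 for H2aj, -0.13 to 0.77 for H2bc3, -0.24 to 0.034 for H2bc6, -0.22 to 0.55 for H2bc15, -0.35 to 0.63 for H3c2, and from -0.086 to 0.18 for H3c7, -0.053 to 0.28 for H3f3a, -0.19 to 0.19 for H4c3, -0.093 to 0.32 for H4c8, -0.15 to 0.41 for H4c11. Among the gene lists, the 1 S phase call became 0 with a pseudocount of 0.1, without the filter, with TMM factors, without the trend and with any sample left out. Other RNAs without a poly(A) tail had 1 call at a minimum mean of 50 and with either replicate block, 2 with DESeq2, and 0 to 1 with a sample left out. Chaperones had 1 with DESeq2 and either block. Biliary markers had 4 calls with either block, 1 without the trend, and 1 to 2 with a sample left out. Endothelial markers had 2 with the limma block, and leukocyte and erythroid markers 2 with either block and 0 to 1 with a sample left out. Hepatocyte markers had 2 calls in limma and 3 with its block, which added Hnf4a. With the limma block the counts of the other lists and of histone rows stayed as they were. The F test of replicate numbers called 0 to 2 histone rows with a sample left out. The cause of these changes was not tested. Genes with few reads limit what can be seen: 16 of the 74 rows were under the filter.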
